A study of Mus musculus with 2 samples.

Results

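The genes described here are the 3 Snail family transcription factors Snai1, Snai2 and Snai3, the classical cadherins Cdh1 (E-cadherin) and Cdh3 (P-cadherin), and the cadherin-binding catenins Ctnna1 and Ctnnd1. They were taken by gene symbol, which gave 7 of the 18193 named genes and 15 of the 45037 probe sets other than controls. The study sought targets of FGFR2-IIIb, the epithelial splice form of fibroblast growth factor receptor 2, in the hair follicle. RNA came from follicles of dnFGFR2-IIIb transgenic mice and of wild-type mice, both at postnatal day 10, with 1 Affymetrix Mouse430_2 expression array per group. Each array received a pool of about 300 follicles, about 100 from each of 3 mice of independent litters. The labels state neither the promoter that drives the transgene nor the strain or sex of the mice. With 1 array per group there is no replicate spread and no test, and each difference describes these 2 pools. Pooling hides the spread between mice, and the precision is limited by the number of arrays. The 7 genes were proposed with the ratios of these arrays in view and selected on them in part, Snai3 for its low ratio, so that the values below are a description.

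Snail proteins are zinc finger repressors that bind E-box sequences in the promoters of epithelial genes, Cdh1 being the best known target, and recruit histone-modifying enzymes through a short amino-terminal domain. Classical cadherins hold neighbouring epithelial cells together at adherens junctions, with p120-catenin (Ctnnd1) stabilising them at the membrane and alpha-E-catenin (Ctnna1) linking them through beta-catenin to actin. In the hair follicle, P-cadherin is known as the cadherin of the proliferating matrix, where E-cadherin is low, and the epithelial bud that starts a follicle forms with a transient loss of E-cadherin and a rise of Snai1.

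The E-box that these repressors read is shown here in the promoter of Snai1 itself, since in human cells SNAI1 is known to repress its own gene. RefSeq promoter windows of GRCm38.p6, from 250 bases before to 50 after a start, were read for 2 of the 7 genes, Snai1 and Ctnnd1. The stretch lies at chr2:167538039-167538104 on the plus strand, and the capitals mark the E-box, which begins 126 bases before the start.
Snai1 promoter: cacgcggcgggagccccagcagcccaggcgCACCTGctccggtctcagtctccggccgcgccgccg
The letters CAGGTG or, on the other strand, CACCTG, which are each other's reverse complement and count as 1 motif, occurred once in this window and in neither of the 2 windows of Ctnnd1. Of all 32851 windows of this length, 20.2% hold the motif, so its presence is a description and does not show binding, which was not tested.

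Of the 7 genes, Snai3 read far lower on the transgenic array and the others either lay within 1.28-fold of their wild-type signal at every probe set above the floor or were too dim to compare. A gene was represented by its brightest probe set and was called when both signals exceeded a floor of 10.5 and lay at least 2-fold apart. By this rule 1 of the 6 genes that exceeded the floor in both pools, Snai3, was called lower and 0 higher. The same rule called 3.18% of all 11565 genes that could be called, 1.58% lower and 1.6% higher. Counted by probe set, 1 of 12 was called, against 3.78% of all named probe sets. Since Snai3 was chosen with its ratio known, nothing is read from these shares.

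**Figure D1:**
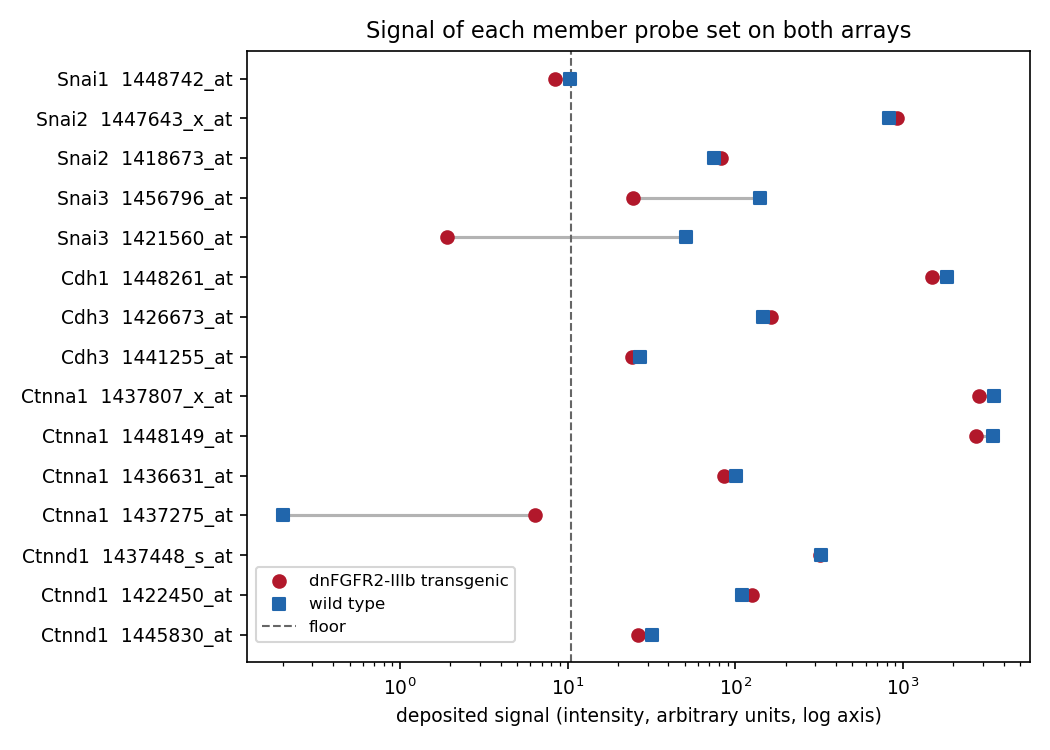
Deposited signal (intensity in arbitrary units, log axis) of each of the 15 probe sets of the 7 genes, with the transgenic array as circles, the wild-type array as squares and the floor of 10.5 as a dashed line. Both Snai3 probe sets lie far to the left on the transgenic array, while the wide gap of 1437275_at of Ctnna1 is between 2 signals under the floor. Positions of different probe sets along the axis cannot be compared.

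Snai3, also known as Smuc, is the most divergent member of the family and was described in mouse skeletal muscle and thymus. Its brighter probe set, 1456796_at, read 24.6 in transgenic follicles and 140 in wild-type follicles, and was thus 5.69-fold lower (log2 ratio -2.51). The second probe set, 1421560_at, read 1.9 on the transgenic array, which is under the floor, and 50.6 on the wild-type array, and was at least 4.82-fold lower. Both probe sets therefore put the transgenic array far below the wild-type array, and the transgenic array had 1 signal near the floor and 1 under it. The brightest control probe set with no target in the mouse read 15.8 in the transgenic pool and 8.5 in the wild-type pool. The transgenic signal of 24.6 is thus close to background, and the size of the ratio is uncertain. By log2 ratio, Snai3 ranked number 8 from the lowest of the 11565 genes. Among the 3865 genes whose mean signal lay within 2-fold of that of Snai3, 55 (1.42%) were at least 2-fold lower and 47 at least 2-fold higher. In this group 6 genes, Snai3 included, had a ratio as low as that of Snai3 or lower. The rank and these counts follow from the choice of Snai3 for its low ratio, so nothing is read from them.

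The difference can also be set against how far probe sets of the same gene disagree. This technical spread, taken as the SD of the log2 ratio over a gene's own probe sets, was 0.51 for dim, 0.38 for middle and 0.29 for bright probe sets. It leaves out differences between mice and between preparations. By its mean signal 1456796_at falls in the middle group, with a spread of 0.38, but its transgenic signal of 24.6 lies in the dim range. Since Snai3 was chosen for its low ratio, nothing is read from a log2 ratio of -2.51 that exceeds either spread. Under 5 other scalings of the arrays this log2 ratio lay between -2.65 and -2.32. With the floor raised to 27.7 or 50 the transgenic signal fell under it, so that the gene was no longer called and its log2 ratio became a bound of -2.34 or -1.49.

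Snai2, also called Slug, is the family member expressed in basal keratinocytes, dermal cells and melanocytes. Its probe set 1447643_x_at read 920.2 in transgenic and 825.6 in wild-type follicles, a log2 ratio of 0.16. The other, 1418673_at, read 82.5 in transgenic follicles and 74.5 in wild-type follicles, a log2 ratio of 0.15. The ratios are alike to within 0.01 and smaller than the technical spread, so no difference of Snai2 between the pools was resolved. The suffix x_at marks probe sets that can also match other transcripts, whereas 1418673_at carries no such mark.

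Snai1 was not measurable in either pool. Its single probe set read 8.4 in the transgenic pool and 10.4 in the wild-type pool, both under the floor, so no ratio is given. A low signal does not show that the transcript is absent. The family thus had 1 gene under the floor, 1 with ratios slightly above 1 and 1 that read far lower in transgenic follicles.

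**Figure D2:**
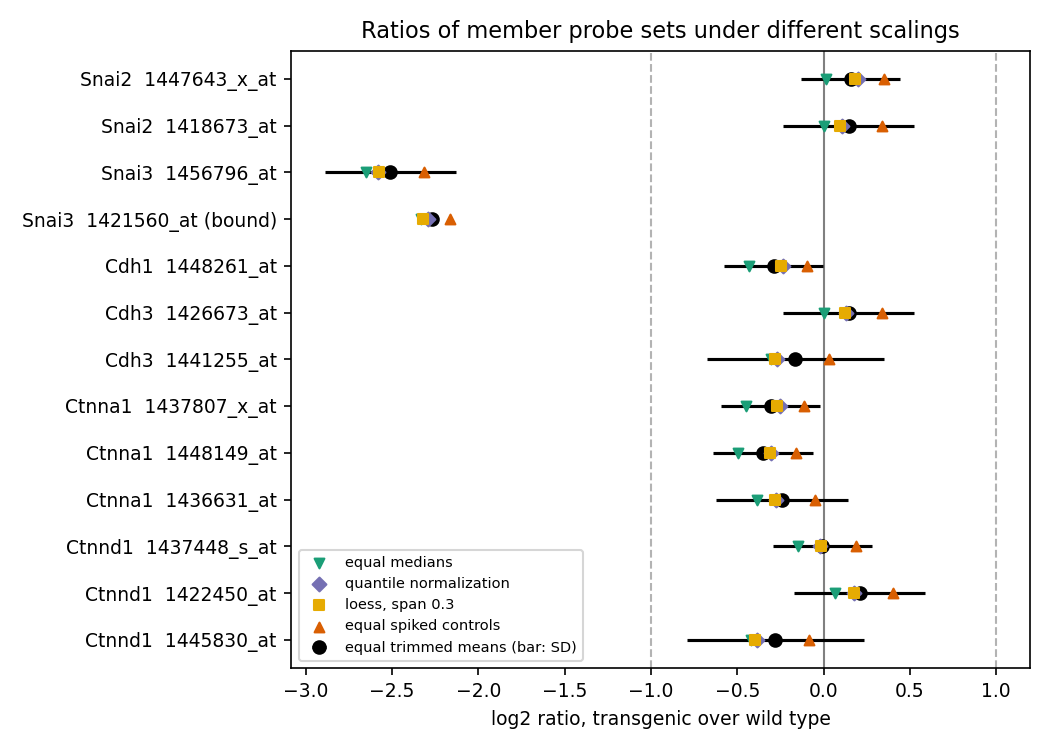
Log2 ratio of transgenic over wild type for the 13 probe sets that exceeded the floor in at least 1 pool, under the main scaling (equal trimmed means, black, with the technical SD as bar except for the bound) and 4 others, dashed lines marking 2-fold. The Snai3 points lie beyond -2 under every scaling drawn, and the other probe sets stay within 2-fold.

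Cdh1, which encodes E-cadherin, read 1497.3 in transgenic and 1828.5 in wild-type follicles at its single probe set, 1448261_at. This is a log2 ratio of -0.29, or 1.22-fold lower, and as large as the technical spread of 0.29. Across the scalings it lay between -0.43 and -0.09. On these arrays Snai3 read 5.69-fold lower, Snai2 read alike and Snai1 was not measurable. A link between any of them and the Cdh1 signal was not tested.

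Cdh3, which encodes P-cadherin, read 163.3 in transgenic follicles and 147.5 in wild-type follicles at 1426673_at, a log2 ratio of 0.15. At its dim probe set 1441255_at it read 24.3 in the transgenic pool and 27.2 in the wild-type pool, a log2 ratio of -0.16. The probe sets differ in sign and both ratios are smaller than the technical spread, so that no direction can be given. Cdh1 and Cdh3 both lie on mouse chromosome 8, as does Snai3.

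Ctnna1, the alpha-catenin of epithelia, read lower on the transgenic array at each of the 3 probe sets that exceeded the floor. The signals were 2841.1 in transgenic and 3510.7 in wild-type follicles at 1437807_x_at (log2 ratio -0.31), and 2727.1 in transgenic follicles and 3476.4 in wild-type follicles at 1448149_at (-0.35). The dimmer 1436631_at read 85.5 in the transgenic pool and 101 in the wild-type pool (-0.24). All 3 log2 ratios lay within 0.11 of each other, and the 2 bright ones exceeded the technical spread of 0.29 by a small amount. With the arrays scaled to equal spiked controls the brightest became -0.11, so a part of so small a shift depends on the scaling. The remaining probe set, 1437275_at, read 6.4 in transgenic and 0.2 in wild-type follicles, both under the floor.

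Ctnnd1, which encodes p120-catenin, showed no common direction. Its brightest probe set, 1437448_s_at, read 321.6 in transgenic follicles and 323.2 in wild-type follicles, a log2 ratio of -0.01. At 1422450_at the signals were 126.1 in the transgenic pool and 109.1 in the wild-type pool (0.21), and at 1445830_at 26.3 in transgenic and 31.9 in wild-type follicles (-0.28). The 3 log2 ratios spanned 0.49, each within the technical spread.

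Leaving out Snai3, 11 member probe sets exceeded the floor in both pools and had log2 ratios between -0.35 and 0.21, with 4 above 0 and 7 below it. With each gene counted once by its brightest probe set, the median of the 5 genes was -0.01, against 0.00 for all 11565 genes. Signs of ratios this small depended on the scaling. Scaling to equal medians moved the median of all genes to -0.14 and scaling to equal spiked controls moved it to 0.19. Under the spiked controls 1437448_s_at of Ctnnd1 became 0.19 and 1441255_at of Cdh3 became 0.03, while the other 9 kept their sign under all 5 scalings.

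**Figure D3:**
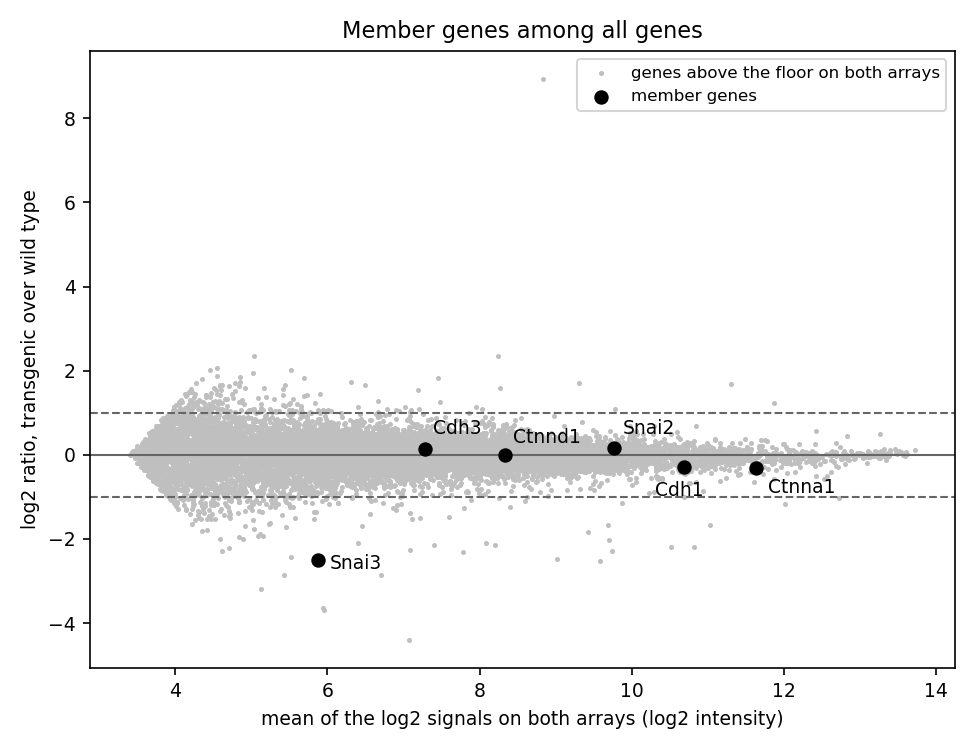
Log2 ratio of transgenic over wild type against the mean log2 signal for the 11565 genes that exceeded the floor in both pools (grey), with the 6 member genes above it in black and dashed lines at 2-fold. Snai3, chosen for its low ratio, lies at -2.51, below nearly all genes of its brightness, and the other 5 lie within the bulk of genes.

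Beta-catenin and plakoglobin, which bind the end of the cadherin tail and are not among the 7 genes, also read nearly alike. Beta-catenin (Ctnnb1), also the transcriptional effector of Wnt signalling, had log2 ratios of 0.06, 0.11 and 0.20 at its 3 probe sets, the brightest reading 6546.7 in transgenic follicles and 6289.8 in wild-type follicles. Plakoglobin (Jup), which serves adherens junctions and desmosomes, read 694.5 in the transgenic pool and 656.7 in the wild-type pool (0.08). Neither differed by more than the technical spread.

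A list of 31 adherens junction genes had 29 above the floor in at least 1 pool. Of these, 16 had a ratio above 1, with 1 at least 2-fold higher and 0 lower, at a median log2 ratio of 0.06. This median equals the log2 ratio of the brightest Ctnnb1 probe set, so it is not separate from the beta-catenin values above. Over all 14045 genes that met the same criterion, 7203 had a ratio above 1, at a median of 0.01. The called gene was Cdh5, the cadherin of endothelial cells, which read 42.3 in transgenic and 13.7 in wild-type follicles (3.09-fold higher), while its other probe set was under the floor on both. The endothelial marker list, which includes Cdh5, went both ways, with 5 of 7 ratios under 1 and a summed signal of 155 in transgenic follicles and 198 in wild-type follicles, Pecam1 being under the floor on both. Kdr was at least 1.41-fold higher, and Egfl7 entered the sums with 25.8 in transgenic and 69.5 in wild-type follicles, a difference as large as that between the sums. Further Egfl7 probe sets gave -0.34, 0.29 and 0.19 as log2 ratios. Next in size came Ctnnal1, a relative of alpha-catenin (log2 ratio -0.76, but 0.67 at its other probe set), and Ctnnd2, the neural relative of p120-catenin (0.70 at its brighter probe set, but at least 1.54-fold lower at the other, which read 4.6 in transgenic and 16.2 in wild-type follicles). Cdh2, the N-cadherin of mesenchymal and neural cells, was near the floor, with 16 in the transgenic pool and 2.1 in the wild-type pool.

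Transcription factors and markers of the epithelial-mesenchymal transition, the process in which Snail proteins are best studied, were mostly dim. Of 20 genes, 19 exceeded the floor in at least 1 pool and 12 in both, and 0 of these 12 were 2-fold apart. The median log2 ratio was 0.23, with 11 of the 19 ratios above 1, and fell to 0.015 when a floor of 50 left the brighter genes. Twist2, a helix-loop-helix factor of dermal cells, read 26.3 in transgenic and 5.2 in wild-type follicles, at least 2.50-fold higher. Zeb2 read 39.2 in transgenic follicles and 22.5 in wild-type follicles (log2 ratio 0.80). Zeb1 read 17.4 in the transgenic pool and 4.3, under the floor, in the wild-type pool, and was thus at least 1.66-fold higher. That transgenic signal was near the 15.8 of the brightest control without a target. Zeb1 was at least 1.07-fold higher at 1420243_at and under the floor on both arrays at its remaining probe sets. Both genes encode E-box repressors of Cdh1 like the Snail factors. Mmp2, a matrix protease of stromal cells, went the other way at both probe sets (-0.67 and -0.65). The transition list as a whole summed to 3644 in transgenic and 3781 in wild-type follicles. Fibroblast and dermal papilla markers, a list that also holds Twist2, mostly read higher. They had 8 of 11 ratios above 1 and a summed signal of 3128 in transgenic and 2273 in wild-type follicles, to which Dcn gave 1589.9 in transgenic follicles and 985 in wild-type follicles. Their part in the result was not tested, and in such bulk samples a different share of cells and a different amount of RNA per cell cannot be told apart.

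Genes of epithelial identity, among them known targets of Snail repression, showed no common shift. Of 24 genes, 23 exceeded the floor in at least 1 pool, 11 with a ratio above 1 and 12 under it, and the median was -0.02. The simple epithelial keratins Krt18 and Krt8 read lower in transgenic follicles, Krt18 with 122.3 in the transgenic pool and 208 in the wild-type pool (log2 ratio -0.77) and Krt8 with -0.47, -0.50 and -0.43 at its 3 probe sets. Ovol2, a zinc finger factor that keeps epithelial cells epithelial, read 23.8 in transgenic and 2.5 in wild-type follicles, at least 2.27-fold higher but near the floor. Elf3, an ETS factor of epithelia, had a log2 ratio of 0.33 and was dim.

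Co-repressors of Snail proteins and enzymes that set their stability comprised 24 genes. Of these, 22 had a probe set, and all 22 exceeded the floor in at least 1 pool. Among the 22, 16 had a ratio above 1 and 0 were 2-fold apart, with a median of 0.13 that became -0.014 with equal medians. Fbxl14, a ubiquitin ligase subunit that targets Snail proteins, read 123.4 in transgenic follicles and 79.1 in wild-type follicles (log2 ratio 0.64). Ezh2, the histone methyltransferase of Polycomb complex PRC2, read 263.2 in the transgenic pool and 195.6 in the wild-type pool (0.43), and the deubiquitinase gene Usp27x, which was dim, had 0.47. Btrc, another ubiquitin ligase subunit, was dim and went both ways, with a log2 ratio of -0.77 at its brightest probe set and bounds of -0.70 and -0.43 at 2 others, but 0.36 at 1446925_at and a bound of 0.45 at 1443142_at.

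Of 24 genes of cadherin trafficking and proteolysis, 23 had a probe set and 22 exceeded the floor in at least 1 pool, with 9 ratios above 1 and a median of -0.04. The called gene was Fer, a tyrosine kinase that binds p120-catenin, which read 35.3 in transgenic and 77.1 in wild-type follicles (2.18-fold lower), but its other probe sets gave log2 ratios of 0.51 and 0.53. Adam15, a membrane protease, was likewise -0.86 at its brightest probe set and between 0.22 and 0.41 at 3 others, and the kinase Src was -0.59 and 0.25. For these genes the direction thus depended on the probe set. Mmp3, a secreted protease, was near the floor, at 17.4 in transgenic follicles and 8.4 in wild-type follicles. The medians of the adherens junction, epithelial, co-repressor and trafficking lists each took the other sign under at least 1 other scaling of the arrays.

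**Figure D4:**
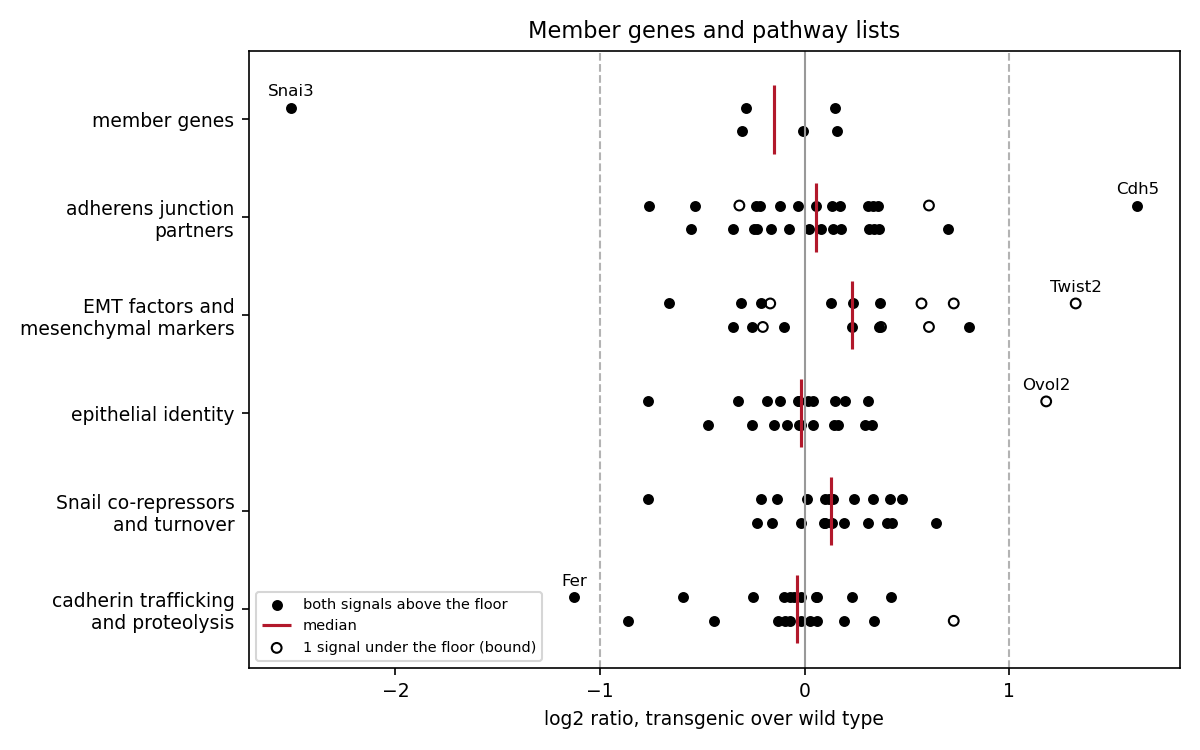
Log2 ratio of transgenic over wild type for the member genes and 5 pathway lists, each gene by its brightest probe set, with filled points where both signals exceeded the floor, open points for bounds and a vertical bar at each list's median. Of the genes drawn, only Snai3, Fer, Cdh5, Twist2 and Ovol2 reach 2-fold, Twist2 and Ovol2 as bounds.

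The 3 genes closest to Snai3 in their log2 signals on the 2 arrays were Calcb, Ddhd1 and Cavin4, at distances of 0.49, 0.67 and 0.70. Calcb, a calcitonin gene-related peptide gene, read 19.9 in the transgenic pool and 107.3 in the wild-type pool. Ddhd1, a phospholipase gene, read 16 in transgenic and 116.6 in wild-type follicles, and Cavin4, a caveola coat gene of muscle, 33.6 in transgenic follicles and 96.4 in wild-type follicles. Likeness over 2 arrays says only that level and ratio are close.

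The genes beside Snai3 on chromosome 8 did not share its low ratio. Mvd, an enzyme of sterol synthesis, had log2 ratios of -0.18 and -0.15, Rnf166, a RING finger gene, -0.03 and -0.36, and Ctu2, which acts in transfer RNA thiolation, -0.09 and 0.15. The gene 9330133O14Rik, of no known role given here, read 26.4 in the transgenic pool and 7 in the wild-type pool.

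Markers of muscle and immune cells, in which Snai3 is known, are given beside it, and their part in its ratio was not tested. The muscle list had 5 of 11 genes above the floor in at least 1 pool, a summed signal of 172 in transgenic and 148 in wild-type follicles, and Des and Ckm under the floor on both. Its genes went both ways, since the 2 above the floor in both pools, Mylpf (68.1 in the transgenic and 89.1 in the wild-type pool) and Myh8 (10.8 in the transgenic and 19 in the wild-type pool), read lower, while Acta1 (37.3 in the transgenic and 9.4 in the wild-type pool), Myh1 and Myh4 read higher against the floor. The immune list had 5 of 10, a summed signal of 176 in transgenic follicles and 72.4 in wild-type follicles, and Ptprc, Cd3e and Cd3g under the floor on both. All 5 of its ratios were above 1, on dim signals. Among them, Cd74 read 22.9 in the transgenic and 11.2 in the wild-type pool. H2-Aa read 42.4 in the transgenic pool and 7.6, under the floor, in the wild-type pool. Melanocyte markers, whose cells can hold Snai2 and both cadherins, summed to 13235 in the transgenic pool and 14364 in the wild-type pool. Basal and outer root sheath markers, from cells rich in E-cadherin, had 8 of 10 ratios under 1, a median of -0.16 and sums of 12941 in transgenic and 15266 in wild-type follicles. Cdh1 and Ctnna1 read lower alongside them, and their part in those ratios was not tested. A median as small as -0.16 can depend on the scaling, which moved that of all genes to -0.14 with equal medians and 0.19 with equal spiked controls.

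The tissue label was borne out by bright hair markers on both arrays, with Krt71 of the inner root sheath at 10171.8 and 9726.8 and Msx2 of the matrix at 1430.2 and 1412.4 on the transgenic and wild-type arrays. Signals above the floor were given by 61.3% of probe sets in transgenic follicles and 58.7% in wild-type follicles. The ratio of 3' to 5' signal of beta-actin was 2.06 in the transgenic pool and 1.89 in the wild-type pool. The Fgfr2 probe sets above the floor, 1433489_s_at and 1420847_a_at, read higher on the transgenic array, by 1.87-fold and 1.41-fold. Whether they lie in the transgene is not known here, so they do not check the labels. The pools also differed in sex-linked transcripts, with Eif2s3y of the Y chromosome at 0.4 in transgenic and 190.9 in wild-type follicles, and Xist at 1145.8 in transgenic follicles and 352 in wild-type follicles. At their brightest probe sets, the Y-linked genes Kdm5d and Uty were at least 5.27-fold and 2.98-fold lower in the transgenic pool, while a dim Kdm5d probe set, 1452563_a_at, was at least 1.63-fold higher, at 17.1 in transgenic and 6.1 in wild-type follicles. The sex and the genotype of the pools cannot be told apart for any gene given here.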

How the data were processed

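The authors deposited 1 linear intensity per probe set. Its 2% trimmed mean is 100 on either array, a scaling seen from the values. The method that summarised the probes was not found in the labels or file headers. The array type comes from the file headers, and hybridisation followed the Affymetrix protocol, per the labels. After leaving out 64 controls, 45037 probe sets remained, of which 34945 had 1 gene symbol in the platform annotation, 932 had several and 9160 were not named; symbols were updated by gene identifier to RefSeq GRCm38.p6. Arrays were rescaled to equal 2% trimmed means, and signals under the floor, the 40th percentile of both arrays, were set to it, so that ratios against it are bounds. Text signals are as deposited, and ratios are rescaled. Named genes were all probe sets of the 7 genes and of Fgfr2, Ctnnb1 and Jup, and sex-linked genes. Up to 4 genes per pathway list with the largest absolute log2 ratio were also named, as were list genes that were called. Further named genes were the 3 closest to Snai3 by Euclidean distance and its 2 neighbours on each side that have a probe set. Marker genes named singly were chosen after their values were seen. They were Pecam1, Kdr, Egfl7, Dcn, Des, Ckm, Mylpf, Myh8, Acta1, Myh1, Myh4, Ptprc, Cd3e, Cd3g, Cd74, H2-Aa, Krt71 and Msx2. The members and lists were chosen with earlier results of these data known. Alternatives were 5 other scalings, other floors or a pseudocount, other rules for probe sets, and other fold thresholds. Python 3.11.15, numpy 2.4.6, pandas 2.3.3, scipy 1.17.1 and statsmodels 0.14.6 were used, and the procedure was checked on simulated data.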

Additional observations from a re-analysis of the deposited data

How the results depend on the processing

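No paired analysis was possible because each group has 1 array. The count of 1 called member, Snai3, became 0 with the floor at the 60th percentile (27.7) and with a floor of 50, since the transgenic signal of 24.6 then lies under the floor and the log2 ratio is a bound of -2.34 and -1.49; it was 1 under the other 12 alternatives. With a pseudocount of the floor's size the log2 ratio was -2.10. The bound at its second probe set was -4.18, -0.87 and -0.02 with floors at the 20th percentile, the 60th percentile and 50, in that order. The count of all genes at least 2-fold apart, 368, was 1530, 111 and 59 with these floors, 855 with the pseudocount, 1519 at 1.5-fold, 67 at 3-fold and 769 for probe sets. The 185 higher and 183 lower genes were 115 and 296 with equal medians, 140 and 230 with quantile normalization, 131 and 239 with loess, and 315 and 103 with equal spiked controls. List medians followed the scaling. For adherens junction, transition, epithelial, co-repressor and trafficking genes, in that order, they were -0.074, 0.090, -0.16, -0.014 and -0.18 with equal medians and 0.25, 0.43, 0.18, 0.32 and 0.16 with equal spiked controls. A floor of 50 gave -0.054 for adherens junction and 0.015 for transition genes, and the mean over probe sets gave 0.13 for epithelial genes. Without s_at, x_at and a_at probe sets the medians were 0.15 for adherens junction, 0.052 for transition, 0.0925 for epithelial and 0.10 for trafficking genes. Apart from that of transition genes, no list median kept its sign under all of these settings.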
